A study of Homo sapiens with 6 samples.

Results

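The genes of the HIST clusters encode the replication-dependent histones, and the expression array carried 79 probes for 70 of them out of 47319 probes in all. A probe was counted as a member where the gene it is annotated to has an older symbol that begins with HIST1H, HIST2H, HIST3H or HIST4H. Those genes are now called by class and number, as in H1-2, H2AC6, H2BC5, H3C2 or H4C8. One further probe names 2 H3 genes at once (H3C6 and H3C11) and was not used. By class there were 6 probes for H1, 19 for H2A, 23 for H2B, 16 for H3 and 15 for H4.

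H2A, H2B, H3 and H4 form the protein core around which DNA is wound in a nucleosome, and H1 binds the linker DNA between nucleosomes. The HIST genes are transcribed mainly while DNA is being replicated. Their messages normally end in a stem-loop that the stem-loop binding protein SLBP recognises, in place of a poly(A) tail. Some of these genes, among them H1-2, H2AC6, H2BC4, H2BC5, H2BC12 and H2BC21, are also known to give polyadenylated transcripts. Standard Illumina labelling usually starts cDNA at the poly(A) tail and so reads such transcripts in preference to those that end in the stem-loop.

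The samples were 6 Illumina arrays of total RNA from MDA-MB-231, a human breast cancer cell line labelled basal-like, with 2 arrays in each of 3 groups. Control cells were compared with cells that stably expressed a small hairpin RNA against DICER1 (DICER1-sh) or against DROSHA (DROSHA-sh), the enzymes of the cytoplasmic and the nuclear step of miRNA maturation, and no group received a further treatment. Whether the control carried a hairpin, whether a knockdown line was 1 clone or a pool, and whether replicates were separate cultures is not stated in the labels. A p-value here therefore reflects the spread of 2 arrays a group, which may be technical only. The series asks which mRNAs respond when miRNA synthesis is inhibited.

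Between 42.0% and 44.4% of all probes were above background on an array, and precision is limited by having 2 arrays a group. The log2 level of each targeted transcript was lowest on both arrays of its own knockdown, for both tested probes of DICER1 and both of DROSHA. VIM, CD44, CAV1, AXL, FOSL1 and EGFR were above background on all 6 arrays. KRT5 and KRT14, keratins of basal epithelium, were above background on none. Of 6 luminal markers, KRT8 and KRT18 were above background on all 6 arrays, GATA3 on 3, and ESR1, PGR and CDH1 on none. Of 3 leukocyte markers with a probe, LYZ was above background on all 6 arrays and PTPRC and CD3E on none. Of 4 fibroblast markers, DCN was above background on up to 5 arrays, COL1A2 on up to 3, LUM on 1 and COL1A1 on none.

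The regions just before the start of the transcript are shown first for the members that the results turn on, because the histone classes differ in the short elements these regions hold. Each run is the 250 bases before the RefSeq start on GRCh38.p14, written 5′ to 3′ on the gene's strand. Capitals mark 4 motifs, each searched on both strands. They are the box CCAAT bound by NF-Y, the core element TATAAA at which transcription complexes assemble, the octamer ATTTGCAT known from H2B promoters, and the element AAACACA known as the H1 box. No motif was found in the H4C8 run. In the H2BC12 run a TATAAA of each strand overlaps the other.
H2BC5, chr6:26157871-26158120, plus strand: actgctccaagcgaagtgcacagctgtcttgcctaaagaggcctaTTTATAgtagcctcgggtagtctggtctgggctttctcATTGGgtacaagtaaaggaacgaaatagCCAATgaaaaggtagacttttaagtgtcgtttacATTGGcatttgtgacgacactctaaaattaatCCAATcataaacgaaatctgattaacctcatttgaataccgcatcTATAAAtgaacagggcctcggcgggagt
H2BC12, chr6:27146859-27147108, minus strand: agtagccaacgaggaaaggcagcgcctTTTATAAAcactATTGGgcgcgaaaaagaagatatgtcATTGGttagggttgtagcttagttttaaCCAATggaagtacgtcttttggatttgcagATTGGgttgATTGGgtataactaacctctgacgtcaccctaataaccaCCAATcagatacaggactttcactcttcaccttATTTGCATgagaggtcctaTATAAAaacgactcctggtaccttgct
H1-2, chr6:26056471-26056720, minus strand: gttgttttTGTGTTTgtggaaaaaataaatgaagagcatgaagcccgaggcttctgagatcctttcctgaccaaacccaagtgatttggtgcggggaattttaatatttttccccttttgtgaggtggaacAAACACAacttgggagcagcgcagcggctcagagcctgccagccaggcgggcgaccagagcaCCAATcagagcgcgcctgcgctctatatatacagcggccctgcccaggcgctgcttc
H4C8, chr6:26285535-26285784, minus strand: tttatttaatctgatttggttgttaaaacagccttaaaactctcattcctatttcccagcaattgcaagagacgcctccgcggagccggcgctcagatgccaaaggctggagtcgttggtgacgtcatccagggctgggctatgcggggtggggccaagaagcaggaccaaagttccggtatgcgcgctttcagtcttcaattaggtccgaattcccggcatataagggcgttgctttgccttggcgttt
H2AC20, chr1:149886668-149886917, plus strand: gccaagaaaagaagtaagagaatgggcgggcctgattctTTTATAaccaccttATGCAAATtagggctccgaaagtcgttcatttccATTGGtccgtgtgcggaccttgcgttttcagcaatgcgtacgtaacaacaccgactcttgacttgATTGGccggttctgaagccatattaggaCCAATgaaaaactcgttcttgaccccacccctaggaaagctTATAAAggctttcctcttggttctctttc
H3C2, chr6:26032100-26032349, minus strand: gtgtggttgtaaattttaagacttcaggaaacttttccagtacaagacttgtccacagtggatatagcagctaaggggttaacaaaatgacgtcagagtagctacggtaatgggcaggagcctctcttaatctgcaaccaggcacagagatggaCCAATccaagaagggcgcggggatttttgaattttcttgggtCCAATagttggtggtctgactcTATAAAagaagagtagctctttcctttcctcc

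RefSeq held such a region for 65 of the 70 member genes, and where a gene had several the first was taken. The octamer was found in 14 of 18 H2B regions (77.8%) and 11 of 16 H2A regions (68.8%). It was found in 1 of 12 H3 regions and 0 of 13 H4 regions, against 1.7% of all 27305 gene promoters of the same length. The H1 box was found in 6 of 6 H1 regions and in no region of the other classes, against 4.9% of all promoters. CCAAT was found in every H1, H2A, H2B and H3 region and in 3 of 13 H4 regions, against 33.0% of all promoters. TATAAA was found in 43 of 65 regions (66.2%), against 11.1%. The regions of H3C4 and H2AC7 were identical over 250 bases, so the same bases count in both the H3 and the H2A class. A match is a run of letters and not a shown binding site. H2AC20 and H2BC21 are transcribed away from each other, and their regions are nearly the same stretch of chromosome 1 read from the other strand.

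Detection separated the members more than it separated the groups. A probe was called above background at a detection p-value below 0.05 and was tested where this held on at least 2 of the 6 arrays. This left 37 member probes for 33 genes, 46.8% of the members, close to the 46.7% of all probes that passed. By class, 2 of 6 H1 probes, 8 of 19 H2A probes, 10 of 23 H2B probes, 9 of 16 H3 probes and 8 of 15 H4 probes were tested. Of the 37, 28 were above background on all 6 arrays, and no member passed through the 2 arrays of a single group alone.

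The 42 member probes that were not tested comprised 32 above background on no array and 10 above background on 1. They included H1-3, H1-4 and H1-5, linker histones of dividing cells, and the testis histones H1-6, H2AC1 and H2BC1, all above background on no array. The 3 probes of the HIST3 cluster were also among them (H2AC25, H2BC26 and H3-4). Of the 59 probes of HIST1 on chromosome 6, 23 were tested, of the 16 of HIST2 on chromosome 1, 13, and the single probe of HIST4 on chromosome 12 (H4C16) was tested, with 2 arrays above background. Between 30 and 40 member probes were above background on an array, with the lowest count on control 1 and the highest on control 2. For H3, 5 probes were above background on control 1 and 10 on control 2, and the H2A, H2B and H4 counts were also lower on control 1.

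Setting DROSHA-sh against control addresses the response to less DROSHA. Among the histones, H1-2, 4 of 8 H2A probes, 4 of 10 H2B probes and H4C8 stood 2-fold or more above control, while 0 of 9 H3 probes did. In all, 10 of 37 members were at least 2-fold higher, against 0.883% of all 22091 probes tested, and 0 were at least 2-fold lower, against 1.36%. The 10 probes stand for fewer genes, since both tested probes of H2AC18, of H2BC5 and of H2BC12 were among them. The rest were the probes of H1-2, H2AC19, H2AC20 and H4C8. The median log2 change of the 37 was 0.49, against 0.012 over all probes tested. The higher values rest partly on control 1: without it the median was 0.037 and 2 probes were past 2-fold, 1 of H2BC5, which was among the 10, and 1 of H2BC21, which was not, and without control 2 the median was 0.98 and 18 were at least 2-fold higher.

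No member passed limma's test after Benjamini-Hochberg adjustment over all probes, the smallest adjusted p among the members being 0.856, and 0% of all probes passed. At an unadjusted p below 0.05, 11 members were higher and 0 lower, against 1.52% and 1.30% of all probes. Both DROSHA-sh arrays lay above both control arrays for 17 of 37 members, against 19.1% of all probes, and below both for 2 (H4C3 and H4C16), against 18.2%. The class medians were 0.60 for H1, 1.00 for H2A, 0.93 for H2B, 0.048 for H3 and 0.42 for H4, and differences between classes were not tested. The 17 comprised H1-2, 6 of 8 H2A probes, 8 of 10 H2B probes and 2 of 8 H4 probes (H4C8 and H4C11).

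**Figure D1:**
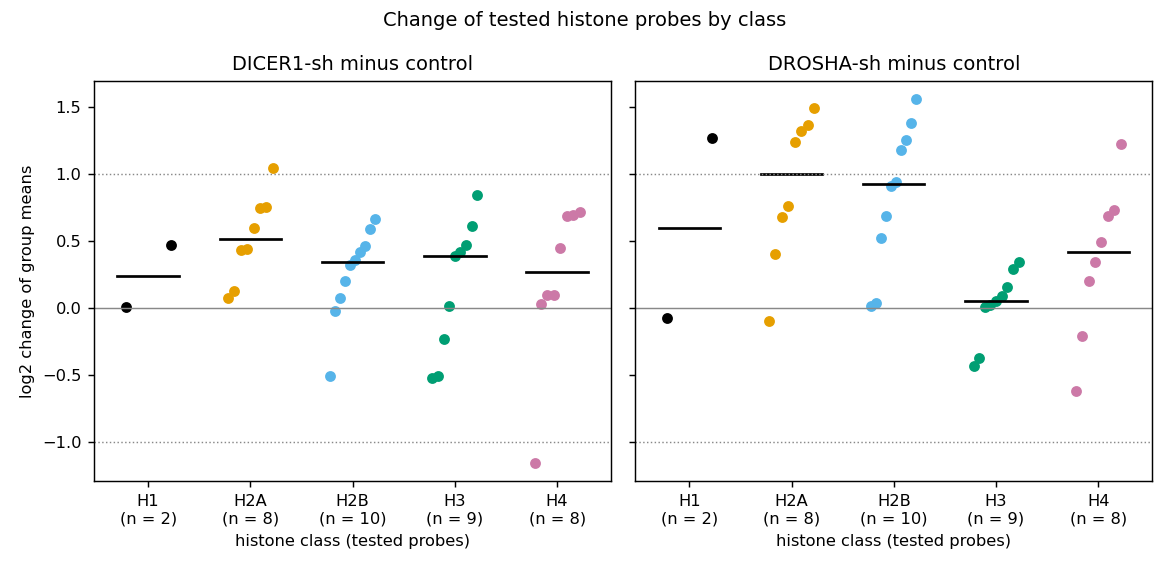
Log2 change of each tested histone probe (points) by class, in DICER1-sh (left) and DROSHA-sh (right) against control, as differences of means of 2 arrays; the black bars are class medians and the dotted lines mark 2-fold. In DROSHA-sh the class medians were 1.00 for H2A and 0.93 for H2B but 0.048 for H3.

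H1-2, a somatic linker histone, had log2 intensities of 9.43 and 10.41 on the control arrays, 10.46 and 10.31 on the DICER1-sh arrays and 11.12 and 11.25 on the DROSHA-sh arrays. The DROSHA-sh arrays were the 2 highest and did not overlap any other group. The log2 change in DROSHA-sh was 1.27 with a standard error of 0.37, which is 2.41-fold (adjusted p = 0.856 in limma), and it was 0.78 without control 1. The other tested H1 probe, for H1-1, stayed between 5.76 and 6.21 on all arrays and stood at a log2 change of -0.074 in DROSHA-sh. It lay near background, since the lowest level called above background was between 5.62 and 5.75 by array, so a change there could be missed.

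H2AC18, H2AC19 and H2AC20 are H2A genes of the HIST2 cluster, the first 2 being near-identical copies that a probe may not tell apart. The H2AC18 probe ILMN_1659047 had log2 intensities of 7.90 and 9.58 in control, 9.56 and 8.80 in DICER1-sh and 10.22 and 10.24 in DROSHA-sh. Its control arrays lay farther apart than any other pair, and the DROSHA-sh arrays were above all others. The log2 change in DROSHA-sh was 1.49 (standard error 0.55) on all arrays and 0.66 when control 1 was left out. The second H2AC18 probe (ILMN_2144426) stood at 1.32, or 0.79 without control 1.

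H2AC19 had 8.26 and 9.26 in control, 9.82 and 9.20 in DICER1-sh and 9.98 and 10.03 in DROSHA-sh. Its log2 change in DROSHA-sh was 1.24 with a standard error of 0.40, and 1 DICER1-sh array lay close below the DROSHA-sh arrays. It was 0.75 without control 1. H2AC20 had 7.21 and 8.62 in control, 9.30 and 8.61 in DICER1-sh and 9.35 and 9.21 in DROSHA-sh. Here DICER1-sh 1 reached the level of the DROSHA-sh arrays, and the log2 change was 1.37 in DROSHA-sh and 1.05 in DICER1-sh, with a standard error of 0.49 for both. Without control 1 these were 0.66 and 0.34, so that neither was past 2-fold, and without control 2 they were 2.08 and 1.76. The remaining H2A probes in DROSHA-sh were H2AC6 at 0.76, H2AC17 at 0.68, H2AC21 at 0.41 and H2AC11, which lay near background, at -0.097. Without control 1, H2AC17 stood at 0.27 and H2AC21 at -0.24.

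The H2B genes held the member with the highest log2 change in DROSHA-sh. The H2BC5 probe ILMN_1651496 had log2 intensities of 8.79 and 9.62 in control, 9.83 and 9.76 in DICER1-sh and 10.58 and 10.94 in DROSHA-sh. The 3 groups did not overlap, with control lowest and DROSHA-sh highest. The log2 change in DROSHA-sh was 1.56 with a standard error of 0.35, which is 2.94-fold (unadjusted p = 0.00294 and adjusted p = 0.856 in limma). It was 1.14 without control 1 and 1.98 without control 2. A second H2BC5 probe annotated to the same RefSeq transcript (ILMN_1758623) stood at 1.25. Another (ILMN_1777405), annotated to another H2BC5 transcript, was above background on no array.

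H2BC12, the other marker of the H2B class, had log2 intensities of 12.29 and 13.26 in control, 13.47 and 13.41 in DICER1-sh and 13.95 and 13.95 in DROSHA-sh at probe ILMN_1796179. The order of the groups was that of H2BC5, with no overlap. The log2 change in DROSHA-sh was 1.18 with a standard error of 0.36. The second probe (ILMN_1813314) read 9.36 and 10.34 in control, 10.28 and 10.33 in DICER1-sh and 11.28 and 11.17 in DROSHA-sh, a log2 change of 1.38. In both probes control 1 was the lowest array of all, and without it the log2 changes were 0.72 and 0.89.

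H2BC21 was 1 of 6 members with control 1 above control 2 (the others being H1-1, H2AC6, H2AC11, H2BC18 and H4C3), with 7.32 and 6.60 in control, 7.41 and 7.23 in DICER1-sh and 7.85 and 7.89 in DROSHA-sh. Its log2 change in DROSHA-sh was 0.91 with a standard error of 0.32, and leaving out control 1 moved it up to 1.26. H2AC6 likewise moved from 0.76 to 0.96 without control 1. H2BC11 had 6.66 and 7.93 in control, 7.60 and 7.63 in DICER1-sh and 8.02 and 8.45 in DROSHA-sh, a log2 change of 0.94. H2BC4 had 6.84 and 7.30 in control, 6.91 and 7.37 in DICER1-sh and 7.68 and 7.51 in DROSHA-sh, a log2 change of 0.52. In both, the DROSHA-sh arrays were the highest, and without control 1 the log2 change was 0.30 for H2BC11 and 0.29 for H2BC4. H2BC6 stood at 0.68, or 0.36 without control 1, and H2BC18 and H2BC3 stood at 0.033 and 0.014, with overlapping groups.

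**Figure D2:**
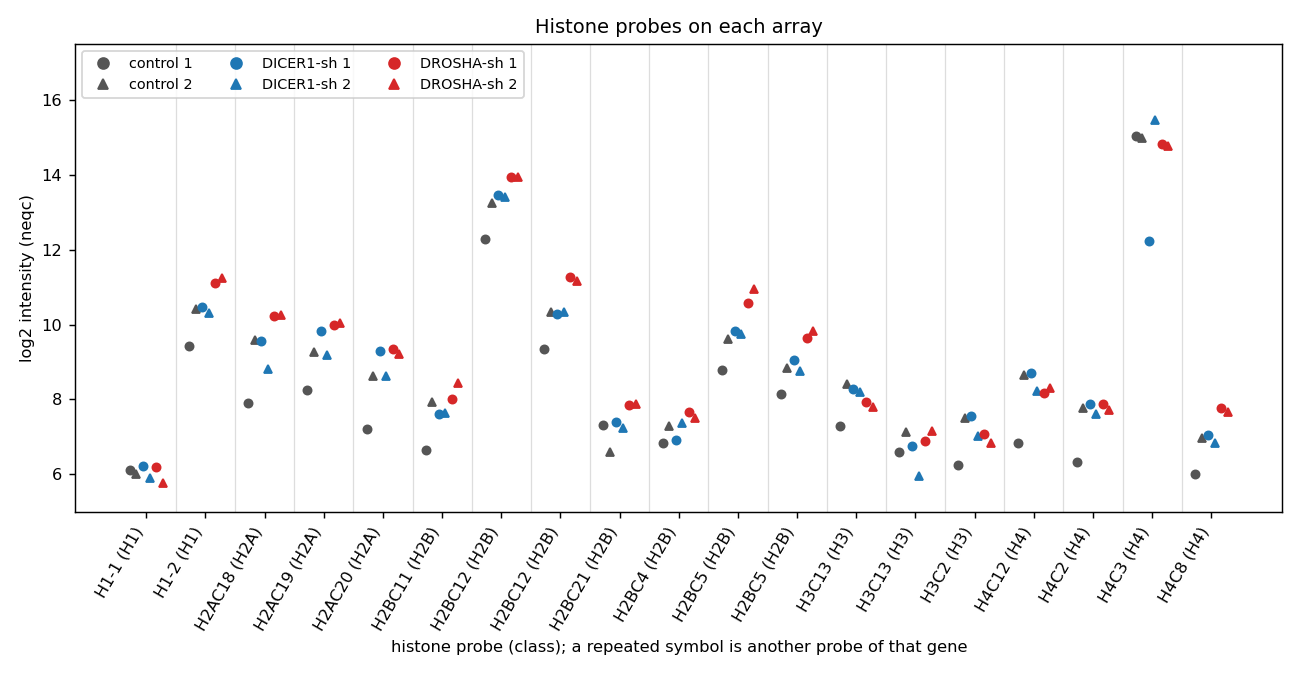
Log2 intensity of the histone probes given with values on every array, with 1 point per array, circles for replicate 1, triangles for replicate 2 and colours for the groups. For H1-2, H2BC5, H2BC12 and H4C8 both DROSHA-sh arrays lie above the other 4, control 1 is the lowest array for most probes, and DICER1-sh 1 lies far below the other arrays for H4C3; levels of separate probes are not comparable with each other.

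H3 members did not share the higher values. H3C2, an H3.1 gene of HIST1, had log2 intensities of 6.25 and 7.49 in control, 7.55 and 7.03 in DICER1-sh and 7.08 and 6.83 in DROSHA-sh. Both DROSHA-sh arrays lay between the 2 control arrays, and the log2 change was 0.088 with a standard error of 0.44. The H3C13 probe ILMN_1664706 had 7.29 and 8.42 in control, 8.29 and 8.19 in DICER1-sh and 7.92 and 7.80 in DROSHA-sh, again within the control pair. Its log2 change in DROSHA-sh was 0.0063 with a standard error of 0.40.

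The second H3C13 probe (ILMN_3249188) had 6.58 and 7.14 in control, 6.75 and 5.96 in DICER1-sh and 6.88 and 7.15 in DROSHA-sh. The 2 tested probes of this gene disagreed in DICER1-sh, at log2 changes of 0.38 and -0.51. Another H3C13 probe (ILMN_1793461) was above background on 1 array and was not tested. Over the 9 H3 probes the log2 change in DROSHA-sh ran from -0.43 (H3C15) to 0.34 (H3C14). All 9 DROSHA-sh means lay above control 1 and 0 of 9 above control 2. Of the 9 tested H3 probes, 4 were above background on all 6 arrays, and H3C1 and H3C10 were above background on neither DROSHA-sh array nor control 1.

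H4 members fell into separate cases. H4C8 had log2 intensities of 6.01 and 6.98 in control, 7.04 and 6.85 in DICER1-sh and 7.77 and 7.67 in DROSHA-sh. The DROSHA-sh arrays were the 2 highest, and the log2 change was 1.22 (standard error 0.37), against 0.74 when control 1 was left out. The size depends on the background correction, being 0.64 with none. Other members also stood lower in DROSHA-sh with none, H2BC11 at 0.57, H2BC21 at 0.53, H2BC4 at 0.30 and H4C2 at 0.39.

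H4C12 had 6.83 and 8.65 in control, 8.70 and 8.22 in DICER1-sh and 8.17 and 8.30 in DROSHA-sh, so that both knockdowns lay close to or below control 2. Its log2 change in DROSHA-sh was 0.49, or -0.42 without control 1. H4C2 had 6.33 and 7.78 in control, 7.89 and 7.61 in DICER1-sh and 7.87 and 7.71 in DROSHA-sh, a log2 change of 0.73 that stood at 0.0044 without control 1. Without control 1, H4C11 moved from 0.68 to 0.33, H4C14 from 0.34 to 0.037 and H4C15 from 0.20 to -0.56. The promoter regions of H4C14 and H4C15, which are copies of each other, were identical over 250 bases. H4C16 was not well above background on either DROSHA-sh array, nor were H3C1 and H3C10, so no fold is given for these 3 genes.

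H4C3 showed a single array apart from the rest. Its log2 intensities were 15.03 and 14.99 in control, 12.22 and 15.48 in DICER1-sh and 14.83 and 14.77 in DROSHA-sh. The raw intensity was 4631 on DICER1-sh 1 and between 28317 and 43812 on the other 5 arrays. The pair of DICER1-sh arrays differed by 3.25 on the log2 scale, a distance reached by 51 of 22091 tested probes (0.231%). The log2 change of H4C3 in DICER1-sh was -1.16 with a standard error of 0.90, and it was 0.47 without DICER1-sh 1.

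Setting DICER1-sh against control addresses the response to less DICER1. The members stood slightly higher, at a median log2 change of 0.42 against 0.0060 over all probes, with 31 of 37 above 0 against 50.6% of all probes. In this comparison 1 member was at least 2-fold higher (H2AC20), against 0.294% of all probes, and without control 1 no member was. At least 2-fold lower was 1 member (H4C3), against 0.928%. Both DICER1-sh arrays lay above both control arrays for 4 members (H2AC17, H2BC5, H2BC12 and H4C11), close to the share of all probes, 10.4%. For H2BC5 and H2BC12 this held at ILMN_1651496 and ILMN_1796179, while at ILMN_1758623 and ILMN_1813314 the groups overlapped.

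No member passed in DICER1-sh (smallest adjusted p 0.968 in limma), and 0 members were below an unadjusted p of 0.05 in either direction, against 0.887% of all probes higher and 0.846% lower. The class medians were 0.24 for H1, 0.52 for H2A, 0.34 for H2B, 0.38 for H3 and 0.27 for H4. The direction rests on control 1: without it the median of all members was -0.073 and 13 of 37 were above 0, and without control 2 it was 0.81.

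DROSHA-sh and DICER1-sh were set against each other directly, which leaves control out of the difference. The standard errors and p-values still come from the fit of all groups, so the spread of the control pair enters them. H2BC5 was 1.96-fold above its DICER1-sh level in DROSHA-sh (log2 difference 0.97, standard error 0.35), and H1-2 stood at 0.80, H4C8 at 0.78 and the H2BC12 probes at 0.51 and 0.92. The median over the H2B probes was 0.59 with 9 of 10 above 0, and over the H3 probes it was -0.33 with 3 of 9 above 0. Both DROSHA-sh arrays were above both DICER1-sh arrays for 16 of 37 members, against 16.3% of all probes. These comprised 8 of 10 H2B probes, 3 of 8 H2A probes, H1-2, 2 of 9 H3 probes and 2 of 8 H4 probes. They were below for 4, against 16.9%.

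Both H2AC18 probes passed 2-fold in this direction, at log2 differences of 1.05 and 1.25, against 0.570% of all probes, and no member was at least 2-fold lower, against 0.231%. No member passed the adjusted test here either (adjusted p = 1.000 in limma for each of the 37), and 4 were below an unadjusted p of 0.05, all higher, against 1.31% of all probes. The medians of the comparisons with control share the control arrays and are therefore given side by side only.

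The difference within each pair of arrays was large in control cells. Control 2 was above control 1 for 31 of 37 members, with a median log2 difference of 0.96 against 0.016 over all probes, and 14 members (37.8%) were at least 2-fold apart against 19.1% of all probes. The class medians were 0.43 for H1, 1.03 for H2A, 0.77 for H2B, 1.10 for H3 and 0.91 for H4. In the H3 class all 9 members were higher on control 2.

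In the DICER1-sh pair the median difference between replicate 2 and replicate 1 was -0.30, with 7 of 37 above 0, against -0.033 over all probes, and H3 stood at -0.52. At least 2-fold apart were 3 members, against 12.2% of all probes. In the DROSHA-sh pair it was 0.00, with 18 of 37 above 0 and 0 members at least 2-fold apart, against 0.810% of all probes. The absolute log2 change was above the absolute difference within the control pair for 13 of 37 members in DROSHA-sh and for 4 of 37 in DICER1-sh, against 25.8% and 24.0% of all probes. All 13 were among the 28 members above background on every array. Subunits of the respiratory chain, a list unrelated to histones, also differed within the control pair, at a median of 0.72 over 13 genes. Against control, the median log2 change of these 13 genes was 0.39 in DICER1-sh and 0.36 in DROSHA-sh, with 12 of 13 above 0 in each. A shift of this kind was therefore not particular to the histones. The part of the arrays' difference in the histone values was not tested.

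**Figure D3:**
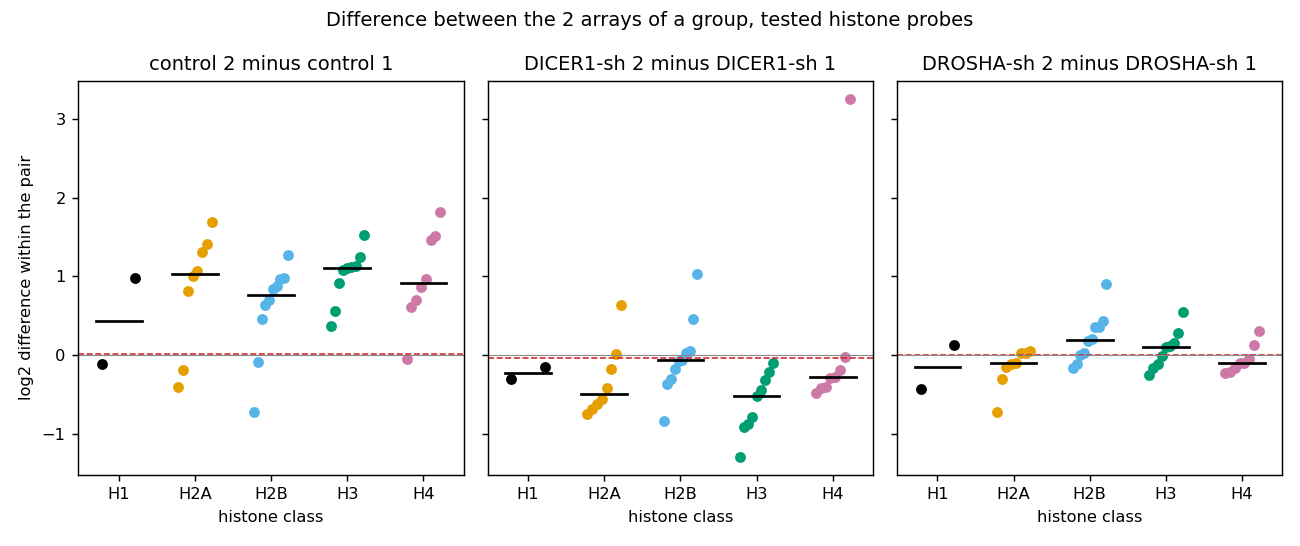
Log2 difference between replicate 2 and replicate 1 of control, DICER1-sh and DROSHA-sh for the tested histone probes by class; black bars are class medians and the dashed line is the median over all tested probes. Most members lie above 0 in control and close to 0 in DROSHA-sh, and the point above 3 in DICER1-sh is H4C3.

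The DROSHA-sh mean was also set against each control array alone. Against control 1 it was higher for 7 of 8 H2A, 9 of 10 H2B, 9 of 9 H3 and 6 of 8 H4 probes. Against control 2 it was higher for 7 of 8 H2A, 9 of 10 H2B, 0 of 9 H3 and 4 of 8 H4 probes. The median difference from control 2 was 0.65 for H2A, 0.53 for H2B, -0.49 for H3 and -0.09 for H4. Some of these counts compare values near background. H3C1, H3C3, H3C10, H3C14, H2AC21, H2BC3 and H4C16 were not above background on control 1, and H3C1, H3C10 and H4C16 on neither DROSHA-sh array.

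**Figure D4:**
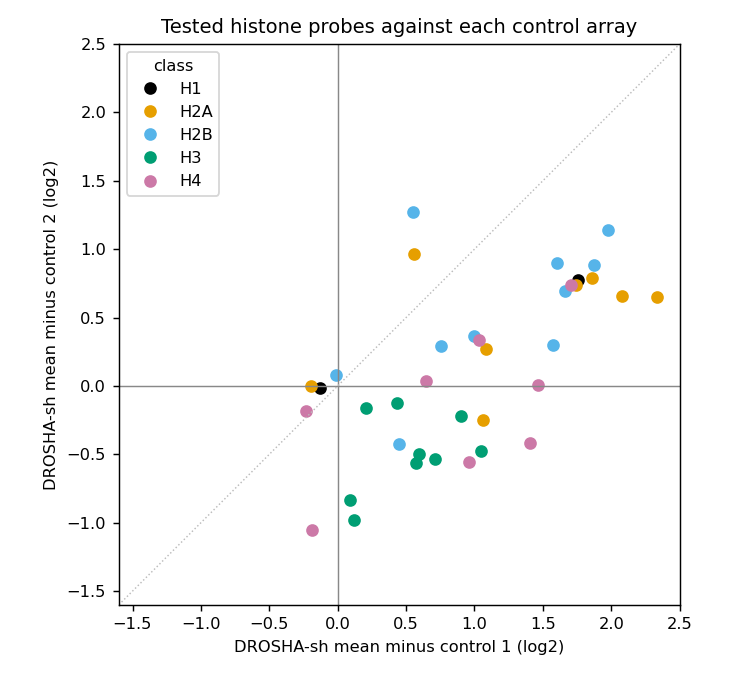
Each tested histone probe by the log2 difference of the DROSHA-sh mean (2 arrays) from control 1 (horizontal axis) and from control 2 (vertical axis), coloured by class; the dotted line marks equal differences. All 9 H3 probes lie to the right of 0 and below 0, while 9 of 10 H2B probes lie above 0 on the vertical axis. H3C1 and H3C10 were not above background on control 1 or in DROSHA-sh.

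The genes known to give polyadenylated transcripts were read as 1 list, which general knowledge supplied after earlier results of these data were known. All 6 (H1-2, H2AC6, H2BC4, H2BC5, H2BC12 and H2BC21, each by its brightest probe) had both DROSHA-sh arrays above both control arrays, as had 19.1% of all probes, and their median log2 change was 1.05 in DROSHA-sh and 0.45 in DICER1-sh. Without control 1 their log2 changes in DROSHA-sh ran from 0.29 (H2BC4) to 1.26 (H2BC21). H4C8 and the HIST2 genes H2AC18, H2AC19 and H2AC20 stood as high without being on that list. Whether the signal of any probe came from a transcript with a tail or with a stem-loop was not tested.

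Neighbouring genes stood at like values in some cases and not in others. H2BC11, H2AC11 and H2BC12 are neighbours among the HIST1 members, and their log2 changes in DROSHA-sh were 0.94, -0.097 and 1.18. The H2AC11 probe lay near background, at log2 intensities between 5.82 and 6.39, so a change there could be missed. Another H2AC11 probe (ILMN_2184602) was above background on no array. H1-2 at 1.27 lies next to H4C3 at -0.21. H2AC20 and H2BC21, which share the divergent region printed for H2AC20, stood at 1.37 and 0.91, and the divergent neighbours H2AC6 and H2BC4 at 0.76 and 0.52. In HIST2, H2AC18 and H2AC19 stood above 1 while their neighbours H3C14 and H3C15 stood at 0.34 and -0.43. The median in DROSHA-sh was 0.68 over 23 HIST1 probes and 0.34 over 13 HIST2 probes. The octamer was found for 5 of 7 tested H2A genes and 7 of 8 tested H2B genes, H2BC5 being the tested H2B gene without it, and for 0 of 8 tested H3 genes. It was also found for 0 of 2 tested H1 genes and 0 of 7 tested H4 genes with a region. H1-2 and H4C8, both past 2-fold in DROSHA-sh, thus lacked it as H2BC5 did. Whether the octamer goes with the changes was not tested.

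Genes that transcribe, process or place histones stood near or below 0 in median. SLBP stood at a log2 change of -0.49 in DROSHA-sh, LSM10, a subunit of the U7 particle that cuts histone pre-mRNA, at 0.84 and TUT4, which adds uridines to RNA ends, at -0.48. Over the 17 tested genes of histone mRNA processing and decay the median was -0.12, with 0 past the adjusted threshold in either direction. The 10 tested genes of histone gene transcription had a median of -0.36, with E2F2 at -0.61 and CDK2, the kinase of S phase entry, at -0.42, and 0 passed. CCNE2, a cyclin E, was not well above background on either DROSHA-sh array, so no change is given for it. LSM10 differed between the control arrays (8.95 and 10.38). CDK2 had 12.58 and 12.13 in control and 12.03 and 11.83 in DROSHA-sh. Control 2 minus control 1 had a median of -0.33 over the processing and decay genes and -0.32 over the transcription genes. The changes of these lists without control 1 were not computed.

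The 20 tested genes of DNA replication had a median of -0.29 in DROSHA-sh, and both DROSHA-sh arrays lay below both control arrays for 13 of them, against 18.2% of all probes. MCM6, a subunit of the replicative helicase, stood at -0.79 and CDC6, which loads it, at -0.54, while CDC25A, a phosphatase of S phase entry, stood at 0.90. The control arrays differed for each, with 13.53 and 12.34 for MCM6, 8.06 and 7.41 for CDC6 and 9.82 and 10.49 for CDC25A. The higher DROSHA-sh array lay close below control 2 for MCM6 (12.29) and CDC6 (7.34). Over the 20 genes, control 2 minus control 1 had a median of -0.0089. Their changes without control 1 were not computed. A smaller share of cells in S phase and less RNA per cell cannot be told apart in bulk RNA. In DICER1-sh the median of the same 20 genes was -0.11.

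The 10 tested histone variants that are made outside replication had a median of 0.13 in DROSHA-sh. Among them MACROH2A1 stood at -0.44, H2AZ2 at -0.45 and H2AJ at 0.72, and H2AJ differed between the control arrays (9.94 and 11.62) as the HIST members did. The 12 tested histone chaperones had a median of -0.21. CHAF1A and CHAF1B, subunits of the assembly factor that works at the replication fork, stood at -0.52 and -0.39. DAXX, an H3.3 chaperone, stood at 0.53. Control 2 minus control 1 had a median of -0.29 over the chaperones and 0.32 over the variants. In each of these lists 0 genes passed the adjusted threshold in limma, and at an unadjusted p below 0.05 in DROSHA-sh CDC25A was the 1 gene, in the higher direction.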

How the data were processed

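The first deposited table holds, per the file headers, raw mean bead intensity values, each with a detection p-value. The second holds processed intensity values that, from their equal quartiles and negative values, the authors had background-subtracted and brought to 1 distribution. The submitters' processing notes name GenomeStudio; its version and the normalization method are not given in the sources used here.

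Raw intensities were corrected and normalized with neqc (limma 3.58.1, R 4.3.3; offset 16, quantile, log2). Probes at detection p below 0.05 on at least 2 arrays were kept (22091 of 47319). All 3 groups were fitted together by lmFit and eBayes without a block, each probe on its own, and p-values were adjusted by Benjamini-Hochberg over all kept probes. Probe symbols came from the platform annotation, updated through Entrez numbers in RefSeq (30073 probes), whose synonyms gave the older HIST symbols. In the other gene lists the probe with the highest mean stood for a gene.

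A probe undetected on both arrays of a group got no fold unless a bound above 1 could be given. Full values are given for H2BC5, H2BC12, H1-2 and H4C8 and up to 3 further probes a class above background on all arrays, those with the highest mean; of each other list up to 3 genes with the smallest unadjusted p in DROSHA-sh. Genes named outside that rule, such as those listed to complete a class or a count, were chosen after their values were seen. The members and lists were chosen with earlier results of these data known. The fit was tested on simulated data. Arrays of the same replicate number deviated oppositely in control and DICER1-sh (correlation -0.65), so the numbers were not taken as pairs.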

Additional observations from a re-analysis of the deposited data

How the results depend on the processing

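No member passed an adjusted p of 0.05 in any comparison under any alternative run. With the replicate block the median log2 changes of the members were 0.42 (DICER1-sh), 0.49 (DROSHA-sh) and 0.27 (DROSHA-sh against DICER1-sh), as without it. A crossed replicate block, chosen after seeing the data because the control and DICER1-sh pairs deviated oppositely, passed 6 probes in each comparison with DROSHA-sh and 0 members. Leaving out 1 array moved the medians between -0.073 and 0.81 in DICER1-sh, 0.037 and 0.98 in DROSHA-sh and 0.12 and 0.28 between the knockdowns. The counts at least 2-fold higher then ran from 0 to 13, 2 to 18 and 2 to 4; in DICER1-sh the count was 13 without control 2 and 4 without DICER1-sh 2. In the settings that left out no array, the median ran from 0.079 to 0.46 in DICER1-sh and from 0.082 to 0.71 in DROSHA-sh. With no background correction it was 0.20 in DICER1-sh and 0.27 in DROSHA-sh. The count at least 2-fold higher in DROSHA-sh ran from 7 to 12 in those settings. The median between the knockdowns was 0.47 for members above background on all arrays, 0.44 with no normalization, 0.12 with no background correction and 0.074 with no filter. In DICER1-sh the count at least 2-fold higher was 3 with the deposited values and 0 with no background correction, no normalization or normexp at offset 50; between the knockdowns it was 1 with 1 probe a gene or normexp at offset 50, 0 with no background correction and 5 with no normalization. With no normalization the median over all probes itself moved to -0.11 in DICER1-sh and 0.14 between the knockdowns. Single probes near 0 changed sign. In DICER1-sh, H1-1 (ILMN_1692831) stood at -0.070 with median scaling, -0.043 with cyclic loess, -0.15 with no normalization and H2BC4 (ILMN_1680937) stood at -0.013 with median scaling, -0.097 with no normalization. In DROSHA-sh, H3C13 (ILMN_1664706) stood at -0.016 with normexp with offset 50, -0.020 with no background correction, -0.035 with median scaling, -0.00041 with cyclic loess and H4C3 (ILMN_2075334) stood at 0.035 with median scaling, 0.077 with no normalization. Between the knockdowns, H1-1 (ILMN_1692831) stood at 0.11 with no normalization. Where leaving out 1 array changed the sign, the log2 change ran over these values. In DICER1-sh it ran from -0.020 to 0.96 for H1-2 (ILMN_1757406), from -0.033 to 0.95 for H2BC12 (ILMN_1813314), from -0.037 to 0.94 for H4C8 (ILMN_1751120), from -0.40 to 1.29 for H2AC18 (ILMN_1659047), from -0.32 to 0.96 for H2BC11 (ILMN_1658702), from -0.16 to 0.30 for H2BC4 (ILMN_1680937), from -0.18 to 0.96 for H3C13 (ILMN_1664706), from -0.20 to 1.05 for H3C2 (ILMN_2222163), from -0.20 to 1.64 for H4C12 (ILMN_1662359), from -0.032 to 1.43 for H4C2 (ILMN_2165369), from -0.15 to 0.16 for H1-1 (ILMN_1692831), from -2.80 to 0.47 for H4C3 (ILMN_2075334). In DROSHA-sh it ran from -0.56 to 0.58 for H3C13 (ILMN_1664706), from -0.53 to 0.72 for H3C2 (ILMN_2222163), from -0.13 to 0.44 for H3C13 (ILMN_3249188), from -0.42 to 1.41 for H4C12 (ILMN_1662359), from -0.29 to 0.14 for H1-1 (ILMN_1692831). Between the knockdowns it ran from -0.30 to 0.13 for H1-1 (ILMN_1692831), from -0.67 to 2.59 for H4C3 (ILMN_2075334), from -0.47 to 0.015 for H4C12 (ILMN_1662359), from -0.021 to 0.66 for H2AC20 (ILMN_1768973), from -0.10 to 0.18 for H4C2 (ILMN_2165369). The cause of these shifts was not tested.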
